A study of Mus musculus with 5 samples.

Results

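Matrix metalloproteases (Mmp genes), the ADAMTS proteases (Adamts genes) and the tissue inhibitors of metalloproteases (Timp genes) were followed in the urothelium, the epithelial lining of the mouse bladder. The members were every gene row whose symbol is Mmp with a number and an optional a or b, Adamts with a number, or Timp1 to Timp4. There were 46 of them among 24970 gene rows, made up of 23 Mmp, 19 Adamts and 4 Timp genes. Bulk RNA was sequenced from 5 mice aged 10 weeks, with 1 library per mouse. The 2 wild types (WT 1 and WT 2) are labelled C57Bl/6, and the 3 Nicastrin knockouts (KO 1 to KO 3) are labelled Krt5CreERT2;Ncstnflox/flox. Nicastrin, encoded by Ncstn, is part of gamma-secretase, the protease that cuts Notch receptors to free their intracellular domain. The Cre depends on the promoter of Krt5, a keratin gene of basal cells, so recombination is aimed at cells that express Krt5 and their descendants and not at fibroblasts, vessels or blood cells of the same dissection. Ncstnflox/flox mice without Cre and mice with Cre alone were not analysed here, and when Cre was induced is not stated in the labels. Strain background, Cre activity and loss of Ncstn therefore cannot be told apart in this comparison.

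Mmp and Adamts enzymes are zinc-dependent proteases that cut proteins of the extracellular matrix and the cell surface. Most Mmps are made as inactive precursors held shut by a cysteine in the propeptide, and furin-like proteases or plasmin open many of them. Timps bind the active site and block it, and Timp3 also blocks several ADAMTS enzymes. In an epithelium such as the urothelium, these genes are shared between epithelial cells, underlying fibroblasts, vessels and leukocytes, and the bladder's matrix and wound repair are known settings of their action.

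Gene counts came to 12608836 to 27188499 per library. Levels are given as CPM, counts divided by TMM-adjusted library sizes, and changes as knockout minus wild type on the log2 scale with the SE of the fit. Markers were used to check the tissue label, and 8 umbrella cell genes summed to 9817 and 10960 CPM in the wild types and 14800 to 16363 CPM in the knockouts. Of these 8, 5 rose and 3 did not pass, but 1, 3 and 2 rose without WT 1, KO 1 and KO 2. Other cells were present as well, with 10 fibroblast markers at 14529 and 16525 CPM in the wild types and 8507 to 10200.5 CPM in the knockouts. Ncstn had 130 to 144 CPM in the wild types and 114 to 123 CPM in the knockouts, a level over all exons and all cells that does not check the deletion. Ribosomal precursor RNA (Rn45s) made up 3.23% and 7.84% of wild-type gene counts and 0.608% to 1.53% of those in the knockouts. The nuclear RNA Malat1 was split the same way, at 0.281% and 0.390% against 0.0658% to 0.0779%. A difference in preparation between the groups was not tested, and leaving such entries out would not remove one.

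In the knockouts, 4 members rose and 6 fell. Mmp7 and Mmp8 went from 1 count in the wild types together to 84 and 103 counts, and Adamts1 and Adamts4 rose 1.90-fold and 2.21-fold. Adamts2, Adamts9, Adamts10 and Adamts12 fell, by 1.43-fold to 2.11-fold. Adamts20 and Mmp12 fell 4.08-fold and 4.95-fold, but like Mmp7 and Mmp8 they entered the test only through the group where they were high. None of the 4 Timp genes passed. These calls are from the edgeR quasi-likelihood test over 14779 genes with Benjamini-Hochberg adjusted p under 0.05, which called 19.7% of all genes, 9.64% as higher and 10.0% as lower.

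A filter on low counts left 34 of the 46 members for this test (13 Mmp, 17 Adamts and 4 Timp genes), and 10 passed it. The filter asked for about 0.593 CPM in at least 2 libraries. Adamts13, Mmp7, Mmp8 and Timp4 met it in the knockouts alone, and Adamts20 and Mmp12 in the wild types alone, so these 6 could enter the test only through the group where they were high. Among the 26 members that met it in either group taken alone, 6 passed (23.1%), near the share over all genes. The groups did not overlap in 16 of the 34 tested members, against 51.0% of all tested genes. The knockouts lay above in 8 members (25.9% of all tested genes) and below in 8 (25.1%). An unadjusted p under 0.05 was found for 16 members, against 34.8% of all tested genes.

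**Figure D1:**
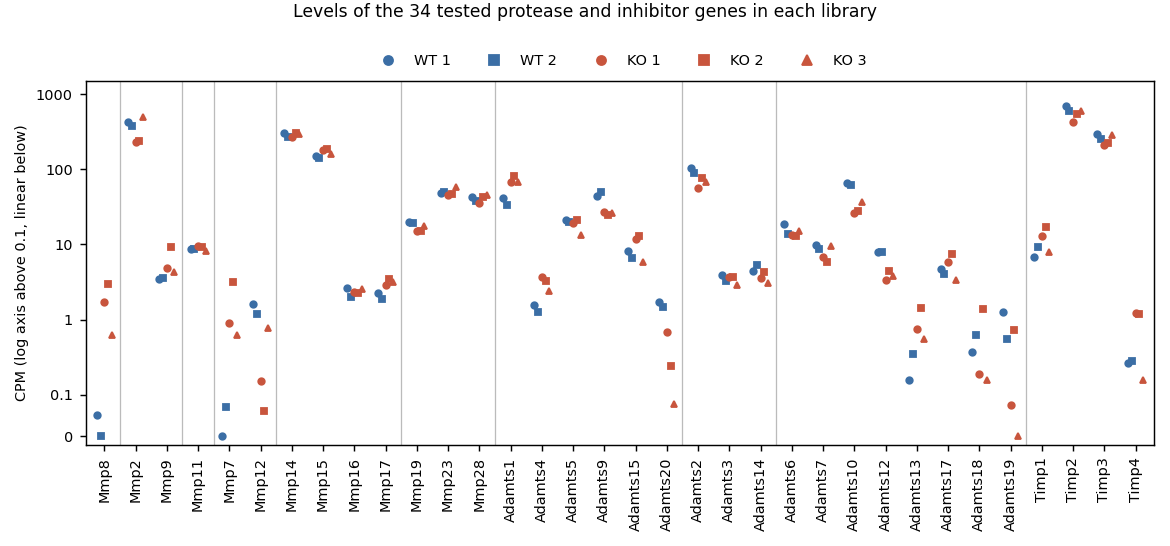
CPM of the 34 tested Mmp, Adamts and Timp genes in each of the 5 libraries, on a log axis above 0.1 CPM and a linear axis below it; vertical lines separate the role groups named in the text. Timp2, Mmp2, Mmp14 and Timp3 are the highest rows, and Mmp7 and Mmp8 are at or near 0 in both wild types.

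Compared per kilobase of exon, the inhibitor gene Timp2 and the gelatinase gene Mmp2 were the most abundant members. Timp2 was at 167 ± 21.2 CPM per kb (SD, n = 2) in the wild types and 135 ± 22.4 CPM per kb (SD, n = 3) in the knockouts. Mmp2 was at 120 ± 8.05 and 95.8 ± 44.2 CPM per kb, and Mmp14, which encodes the membrane-anchored activator of pro-Mmp2, at 48.3 ± 4.32 and 48.6 ± 3.10 CPM per kb. Timp3, which stays bound to the matrix, followed at 33.9 ± 3.73 and 29.5 ± 4.69 CPM per kb, and the ranges of Timp3 and of Mmp15, next in the order, overlapped. Timp2, Timp3, Mmp2 and Mmp14 together held 67.2% to 76.8% of the per-kilobase sum over all members in the 5 libraries. Mmp2 made up 50.6% and 50.1% of the Mmp sum in WT 1 and WT 2, 36.6% and 35.2% in KO 1 and KO 2, and 53.5% in KO 3. The Timp sum was 0.785 and 0.735 times the sum of all Mmp and Adamts genes in the wild types, against 0.687, 0.770 and 0.642 times in the knockouts, so the groups overlapped.

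Among the 12 members below the filter, Mmp1a, Mmp1b and Mmp20 had no count in any library. The other 9 (Mmp3, Mmp10, Mmp13, Mmp21, Mmp24, Mmp25, Mmp27, Adamts8 and Adamts16) had at most 7 counts in a library. A total of 0 counts over a group allows up to 0.0896 CPM in the wild types and 0.0535 CPM in the knockouts (3 counts over the group, counting error alone). Adamts16 had 2 counts per wild type and 0 per knockout (edgeR adjusted p = 0.155 with no filter). For Mmp27 the counts were 3 and 2 in the wild types against 2, 1 and 0 in the knockouts, a ratio of knockout to wild type of 0.359 with a 95% counting interval of 0.0557 to 1.84. At this depth no difference in these rare transcripts could be read.

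Collagenases cut fibrillar collagen, and Mmp8 is the collagenase stored in neutrophil granules. Counts of Mmp8 were 1 and 0 in WT 1 and WT 2, against 46, 49 and 8 in KO 1, KO 2 and KO 3, which is 0.0522 and 0 CPM against 1.73, 2.95 and 0.623 CPM. Every knockout lay above both wild types, and KO 3 was the lowest of the knockouts. The ratio of the summed counts was 61.6, with a 95% counting interval of 10.8 to 2455 that leaves out differences between mice (edgeR adjusted p = 0.00555). Mmp7 encodes matrilysin, a small protease of epithelial cells that lacks the hemopexin domain of most Mmps. Its counts were 0 and 1 in the wild types against 24, 52 and 8 in the knockouts, which is 0 and 0.0697 CPM against 0.903, 3.13 and 0.623 CPM. Again each knockout lay above both wild types and KO 3 was lowest, with a ratio of 50.2 and a counting interval of 8.77 to 2006 (edgeR adjusted p = 0.0140).

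Some neutrophil and some basal urothelial markers moved with Mmp8 and Mmp7. The 8 neutrophil markers summed to 2.19 and 3.49 CPM in WT 1 and WT 2, and KO 1, KO 2 and KO 3 had 26.1, 55.2 and 9.19 CPM, the same order of the knockouts as for Mmp8. Of 5 tested, 3 rose and 2 did not pass. In S100a8, S100a9, Ngp and Cxcr2 both wild types were below the level the filter asks for, so these 4 entered the test through the knockouts alone. S100a8 and S100a9, calcium-binding protein genes that squamous epithelium can also express, and Ngp, a neutrophil granule gene, were the 3 that rose. With WT 1 left out, S100a9 and Ngp did not pass (edgeR adjusted p = 0.0883 and 0.139), nor did Ngp without WT 2 (edgeR adjusted p = 0.112). The neutrophil receptor gene Csf3r was at 0.06 on the log2 scale (edgeR adjusted p = 0.931), Ly6g had 5, 7 and 0 counts in the knockouts against 0 in the wild types, and Elane had at most 1 count in a library. Mpo, the myeloperoxidase gene of neutrophil granules, went the other way, with 7 and 9 counts in the wild types against 3, 4 and 4 in the knockouts, and was below the filter. Of 7 tested basal urothelial markers, 3 rose and 4 did not pass, and 5 rose without KO 3. Krt14, a keratin gene of basal cells, was at 1.78 and 3.14 CPM in the wild types against 86.3, 117 and 31.2 CPM in KO 1, KO 2 and KO 3 (edgeR adjusted p = 0.000469), and passed with each library left out. Ngfr was at 2.61 and 2.86 CPM against 8.39, 12.1 and 4.59 CPM (edgeR adjusted p = 0.0126), and Cdh3 was higher too (edgeR adjusted p = 0.00218). Krt14 and Ngfr had the same order of the knockouts as Mmp8, and Ngfr did not pass without WT 1 or WT 2. The smooth muscle markers Cnn1 and Actg2, the fibroblast marker Dpt and the member Timp1 had that order as well. The order was therefore not particular to neutrophil or basal markers. Krt5 and Trp63 overlapped between groups, and the basal list summed to 2028 and 2310 CPM in the wild types and 2193 to 3027 CPM in the knockouts. The part of these cells in the rise of Mmp8 and Mmp7 was not tested. Since whole tissue was sequenced, more cells of a type and more RNA per cell cannot be told apart here or below.

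**Figure D2:**
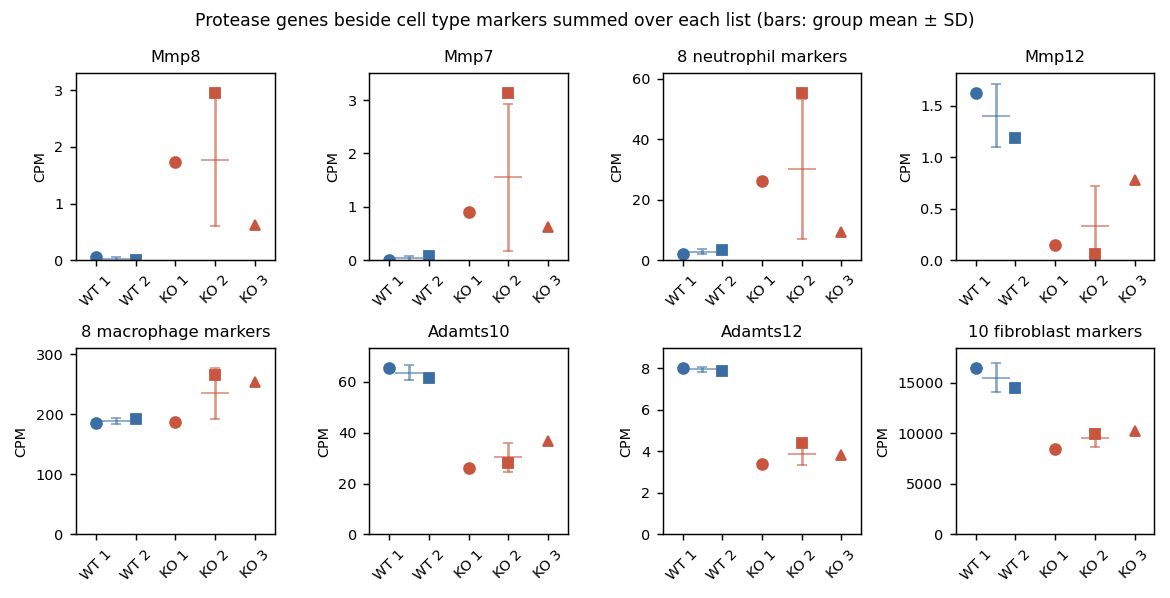
CPM per library of Mmp8, Mmp7, Mmp12, Adamts10 and Adamts12 beside the summed CPM of the neutrophil, macrophage and fibroblast marker lists; each panel has its own linear axis from 0, with the group mean ± SD as bars. KO 2 is highest and KO 3 lowest among the knockouts for Mmp8, Mmp7 and the neutrophil sum, and the fibroblast sum is at most 10200.5 CPM in the knockouts.

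Mmp12 is the macrophage elastase, which degrades elastin. It was at 1.62 and 1.18 CPM in the wild types and 0.151, 0.0601 and 0.779 CPM in the knockouts. The groups did not overlap, and KO 3 lay nearest to the wild types. Its change was -2.31 ± 0.68 on the log2 scale (SE, edgeR adjusted p = 0.0388), from 31 and 17 counts against 4, 1 and 10. The 8 macrophage markers summed to 185 and 193 CPM in the wild types and 187 to 266 CPM in the knockouts, of which 1 rose, 0 fell and 7 did not pass. Without KO 1, 4 macrophage markers rose. Adgre1, which encodes the macrophage surface protein F4/80, was at -0.68 on the log2 scale and did not pass (edgeR adjusted p = 0.0739).

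Mmp7, Mmp8 and Mmp12 lie in the cluster of 10 Mmp genes on chromosome 9 from 7272514 to 7699585 (GRCm38), a span of 427.1 kb. In order along the chromosome it holds Mmp13, Mmp12, Mmp1b, Mmp3, Mmp1a, Mmp10, Mmp8, Mmp27, Mmp20 and Mmp7. Only these 3 reached the filter, each through a single group, and Mmp27, whose gene starts 2911 bases past the end of Mmp8, stayed at 3 counts or fewer per library. The rise of Mmp8 was thus not seen in the neighbouring Mmp27 at this depth. Mmp12 shares 157 exon bases with Mmp1b on the opposite strand, and Mmp1b was at 0 throughout.

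**Figure D3:**
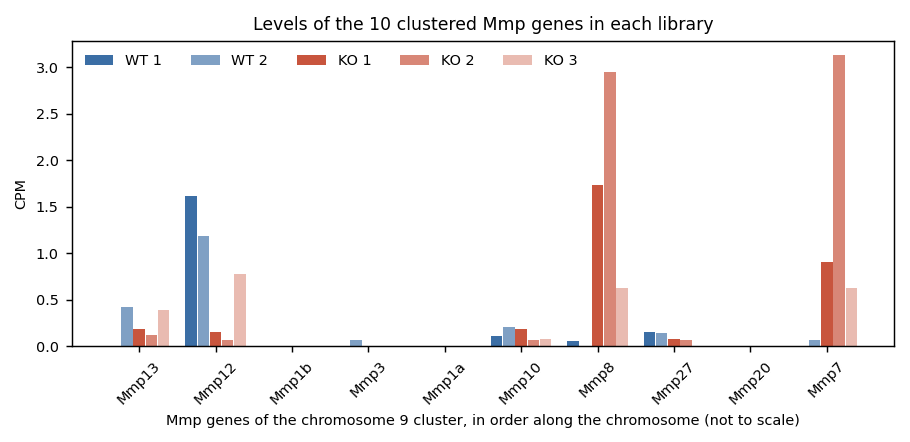
CPM of the 10 clustered Mmp genes in each library, as bars from 0 on a linear axis, in order along chromosome 9 and not to scale. Mmp8 and Mmp7 stand above 0.5 CPM in the 3 knockouts alone, Mmp12 is highest in the wild types, and the other 7 stay under 0.5 CPM.

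The start regions of these genes are shown because the clustered Mmp genes are textbook targets of AP-1, the Fos and Jun dimer. RefSeq windows (GRCm38.p6) from 250 bases before to 50 bases after a start site were at hand for 32 of the 46 members. Capitals mark the AP-1 letters TGANTCA on either strand and the TATA letters TATAAA as the gene reads. The motifs share no bases in the windows shown, and each window reads 5′ to 3′ along its gene.
Mmp7 (chr9:7691840-7692139, plus strand): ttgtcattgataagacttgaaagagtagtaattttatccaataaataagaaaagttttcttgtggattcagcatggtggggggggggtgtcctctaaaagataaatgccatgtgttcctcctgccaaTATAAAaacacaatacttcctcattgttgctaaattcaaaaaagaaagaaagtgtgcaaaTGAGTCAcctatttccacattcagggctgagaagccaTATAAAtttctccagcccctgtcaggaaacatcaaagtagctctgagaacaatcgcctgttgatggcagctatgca
Mmp8 (chr9:7558179-7558478, plus strand): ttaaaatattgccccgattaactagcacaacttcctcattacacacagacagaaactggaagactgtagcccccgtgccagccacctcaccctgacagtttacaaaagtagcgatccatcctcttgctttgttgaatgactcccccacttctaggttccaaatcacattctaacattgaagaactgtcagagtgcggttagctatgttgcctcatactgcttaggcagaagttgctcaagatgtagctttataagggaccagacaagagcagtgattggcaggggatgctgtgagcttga
Mmp12 (chr9:7347124-7347423, plus strand, the downstream of 2 annotated starts): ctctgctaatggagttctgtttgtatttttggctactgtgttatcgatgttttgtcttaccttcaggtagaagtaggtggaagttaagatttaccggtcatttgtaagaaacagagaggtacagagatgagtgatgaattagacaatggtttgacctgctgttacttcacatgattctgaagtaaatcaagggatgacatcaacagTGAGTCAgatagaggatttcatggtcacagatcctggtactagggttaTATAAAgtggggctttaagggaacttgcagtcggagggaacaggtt
Adamts1 (chr16:85803064-85803363, minus strand): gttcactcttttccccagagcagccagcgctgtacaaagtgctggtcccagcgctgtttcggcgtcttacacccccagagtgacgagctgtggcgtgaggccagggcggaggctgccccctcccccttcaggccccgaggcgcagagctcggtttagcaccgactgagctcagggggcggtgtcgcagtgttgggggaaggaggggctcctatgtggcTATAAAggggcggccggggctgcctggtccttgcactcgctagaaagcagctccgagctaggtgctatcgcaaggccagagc

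In the Mmp7 window shown, TGANTCA began 63 bases before the start site and TATAAA 26 and 123 bases before it, while the other Mmp7 window, from 7692091 to 7692390, held neither. The Mmp8 window held neither. In the Mmp12 window TGANTCA began 44 bases before the start site and TATAAA 4 bases after it, while the other Mmp12 window, from 7344147 to 7344446, held neither. Across the cluster, 8 of 10 genes had TGANTCA and the same number had TATAAA, Mmp8 and Mmp27 being those without. Of the 22 other members with a window, 0 had TGANTCA, and 2 (Adamts1 and Mmp21) had TATAAA. Among all 32851 windows, 7.81% held TGANTCA and 8.32% held TATAAA, against 8 and 10 of the 35 member windows. The 6 letters TGGGAA are the core bound by the Notch partner RBPJ. Searched on both strands, they were in 10 of the 35 member windows and in 25.6% of all windows. Of 11 tested AP-1 and Ets factor genes, 3 rose and 2 fell (median log2 fold change -0.19). Jun rose by 0.69 ± 0.11 (SE, edgeR adjusted p = 0.00249), and Ets2 by 0.73 ± 0.10 (edgeR adjusted p = 0.000985), while Etv5 and Ets1 fell by 0.89 and 0.45 on the log2 scale. Leaving out WT 1 ended the call for Ets1 (edgeR adjusted p = 0.0818).

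Gelatinases digest denatured collagen and basement membrane. Mmp2, a product mainly of fibroblasts, had 423 and 384 CPM in the wild types, and KO 1, KO 2 and KO 3 had 231, 243 and 495 CPM. KO 1 and KO 2 lay below both wild types and KO 3 above both, so the groups overlapped and the gene did not pass, at -0.32 ± 0.27 on the log2 scale (edgeR adjusted p = 0.432). Without KO 3 it was -0.78 (edgeR adjusted p = 0.000203). Mmp9, the gelatinase of neutrophils and of migrating epithelium, was at 3.45 and 3.62 CPM in the wild types and 4.82, 9.32 and 4.28 CPM in the knockouts. Every knockout was above both wild types and KO 2 was the highest, but the difference did not pass, at 0.80 ± 0.33 on the log2 scale (edgeR adjusted p = 0.120), and did without KO 3 (edgeR adjusted p = 0.0261).

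Membrane-type Mmps act at the cell surface, and none of the 4 tested passed. Mmp14 was at 306 and 270 CPM in the wild types and 269, 303 and 298 CPM in the knockouts, or 0.01 ± 0.10 on the log2 scale (edgeR adjusted p = 0.963). The groups covered the same range, and the sign of this small value flipped under 6 of 14 alternatives, upper-quartile scaling among them. Mmp15, which is found in many epithelia, was at 152 and 142 CPM against 179, 187 and 160 CPM, all knockouts above both wild types, at 0.26 ± 0.10 on the log2 scale (edgeR adjusted p = 0.0983, not past the test). Mmp17 had 2.25 and 1.88 CPM against 2.86, 3.43 and 3.19 CPM, without overlap (edgeR adjusted p = 0.144), and Mmp16 was at 2.02 to 2.61 CPM in all libraries. The stromelysin-like gene Mmp11 and the genes Mmp19, Mmp23 and Mmp28 (epilysin, an Mmp of epithelia) did not pass either. Of these, Mmp19 came closest, at 20.2 and 19.2 CPM in the wild types against 15.1, 15.2 and 17.5 CPM (edgeR adjusted p = 0.111). It shares 789 exon bases, 22.3% of its exons, with Tmem198b on the opposite strand, which had 185 to 377 counts. Mmp11, Mmp23 and Mmp28 differed by 0.02 to 0.07 on the log2 scale.

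The proteoglycan-cleaving Adamts genes, whose enzymes cut versican and aggrecan, split in direction. Adamts1 was at 41.8 and 34.1 CPM in the wild types and 67.2, 81.7 and 67.7 CPM in the knockouts. All knockouts were above both wild types, and the log2 scale difference was 0.93 ± 0.13 (edgeR adjusted p = 0.00136). Adamts4 was at 1.57 and 1.25 CPM against 3.65, 3.25 and 2.41 CPM, again without overlap, a log2 scale difference of 1.14 ± 0.31 (edgeR adjusted p = 0.0292). Adamts9, a versicanase that is also expressed in vessels, fell from 44.3 and 49.4 CPM to 26.9, 25.0 and 26.2 CPM. The knockouts were tightly grouped below both wild types, and the change was -0.85 ± 0.10 on the log2 scale (edgeR adjusted p = 0.000669). It shares 1381 exon bases, 9.18% of its exons, with A730049H05Rik on the opposite strand, whose counts were not analysed here. As no source used here gives the strand setting of the counting, reads in such shared stretches cannot be assigned with certainty. Adamts20 fell from 1.72 and 1.46 CPM to 0.678, 0.241 and 0.0779 CPM (log2 fold change -2.03 ± 0.56, edgeR adjusted p = 0.0296), from 18, 4 and 1 counts in the knockouts.

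Adamts5, a principal aggrecanase, lies beside Adamts1 on chromosome 16 and did not pass. It was at 21.0 and 19.7 CPM in the wild types and 19.3, 21.2 and 13.5 CPM in the knockouts (log2 fold change -0.17 ± 0.17, edgeR adjusted p = 0.534). KO 3 was below the other 4 libraries, which covered a single narrow range. Adamts15 overlapped between groups at 5.76 to 12.9 CPM in the knockouts against 6.69 and 8.25 CPM (edgeR adjusted p = 0.293). The versican gene Vcan, the main substrate of this group in soft tissue, was at 231 ± 6.91 CPM (SD, n = 2) in the wild types and lower, at 89.8 ± 9.03 CPM (SD, n = 3), in the knockouts (edgeR adjusted p = 3.97e-05).

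Procollagen N-propeptidases trim new collagen so that it can form fibrils. Adamts2, the main enzyme of this kind, was at 105 and 88.7 CPM in the wild types and 57.3, 77.7 and 68.4 CPM in the knockouts. All knockouts lay below both wild types, by -0.52 ± 0.13 on the log2 scale (edgeR adjusted p = 0.0223). Adamts14 and Adamts3, its relatives, were at 3.11 to 5.30 and 2.88 to 3.92 CPM, with edgeR adjusted p = 0.253 and 0.886.

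Of the remaining Adamts genes, Adamts10 and Adamts12 fell. Adamts10, whose product binds fibrillin microfibrils, was at 65.7 and 61.5 CPM in the wild types and 26.2, 28.1 and 36.8 CPM in the knockouts. All knockouts lay below both wild types, and the log2 fold change was -1.08 ± 0.14 (edgeR adjusted p = 0.000877). Adamts12 was at 8.04 and 7.88 CPM against 3.39, 4.39 and 3.82 CPM, also without overlap, at -1.05 ± 0.20 on the log2 scale (edgeR adjusted p = 0.00593). Adamts13, which cleaves von Willebrand factor, was nearest above the threshold, at 0.157 and 0.349 CPM against 0.753, 1.44 and 0.545 CPM (log2 fold change 1.90 ± 0.64, edgeR adjusted p = 0.0623). Adamts6, Adamts7, Adamts17, Adamts18 and Adamts19 overlapped between groups and did not pass (edgeR adjusted p from 0.164 to 0.893).

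The genes that fell did so in libraries where stromal markers were lower. Of 10 fibroblast markers, 9 fell and 1 did not pass (median log2 fold change -0.73), with Lum at -1.59 and Pi16 at -0.94. Of 8 endothelial markers, 3 fell and 5 did not pass (median -0.41), summing to 451 and 460 CPM in the wild types and 309 to 352 CPM in the knockouts. Of 8 smooth muscle markers, 1 fell and 7 did not pass (median 0.04). The one that fell, Smtn, passed with KO 3 left out but not without WT 1, WT 2, KO 1 or KO 2, and without KO 3 there were 3 that rose. Over all tested genes the median was 0.01. No marker of these lists was at 0 in all libraries, and the part of fewer stromal cells in the fall of Adamts2, Adamts9, Adamts10, Adamts12 and Adamts20 was not tested. Mmp14, Mmp23 and Adamts5 did not pass in the same libraries, at 0.01, 0.02 and -0.17 on the log2 scale. Neither did Mmp2, Timp2 and Timp3, at -0.32, -0.31 and -0.20, which passed as lower without KO 3. Which cells expressed these members was not tested. Without WT 1, 3 fibroblast markers and 1 endothelial marker fell, and without KO 3, 5 endothelial markers did.

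**Figure D4:**
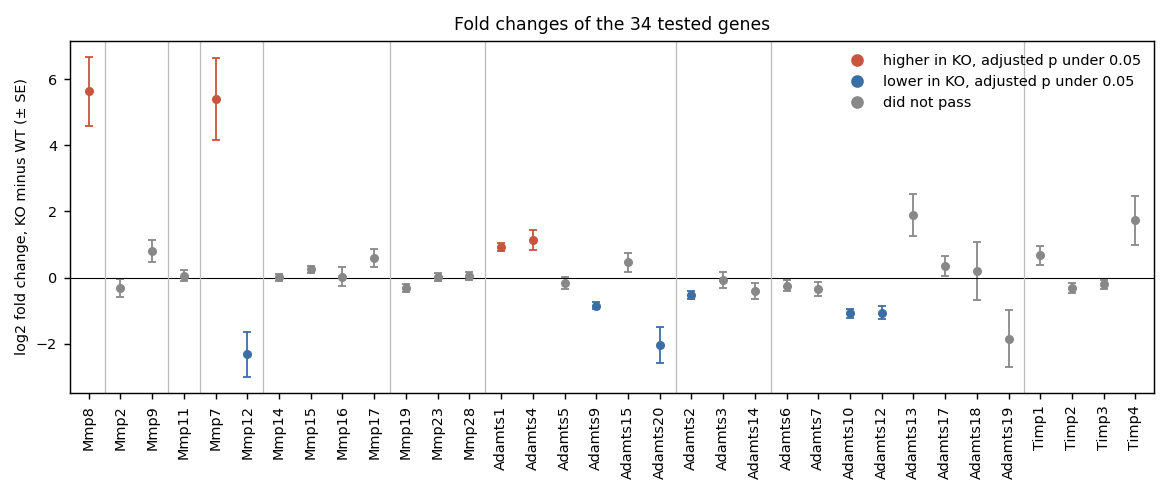
Log2 fold change (knockout minus wild type, ± SE of the edgeR fit) of the 34 tested genes, ordered and separated by role as in the plot of levels. The 4 genes that rose are Mmp8, Mmp7, Adamts1 and Adamts4, the 6 that fell are Mmp12 and 5 Adamts genes, and the other 24 did not pass.

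Timp genes are the inhibitor side of the family, and none passed. Timp1, an inducible inhibitor, was at 6.89 and 9.27 CPM in the wild types and 13.1, 17.3 and 7.86 CPM in the knockouts. KO 1 and KO 2 were above both wild types and KO 3 lay between them (log2 fold change 0.68 ± 0.28, edgeR adjusted p = 0.121). Timp2, which also takes part in the activation of pro-Mmp2 by Mmp14, was at 709 and 592 CPM against 430, 545 and 601 CPM. KO 3 lay inside the range of the wild types and the other knockouts below it (log2 fold change -0.31 ± 0.15, edgeR adjusted p = 0.170). Timp3 was at 298 and 255 CPM against 212, 224 and 284 CPM with the same pattern (log2 fold change -0.20 ± 0.13, edgeR adjusted p = 0.316). Timp4 was at 0.261 and 0.279 CPM against 1.20, 1.20 and 0.156 CPM, high in KO 1 and KO 2 alone (log2 fold change 1.74 ± 0.74, edgeR adjusted p = 0.127). In all 4 genes, KO 3 was thus nearer to the wild types than KO 1 and KO 2 were, or within their range. Without KO 3, all 4 passed, Timp1 and Timp4 as higher (edgeR adjusted p = 0.00364 and 0.00726) and Timp2 and Timp3 as lower (edgeR adjusted p = 0.0376 and 0.0370). In that fit 3989 of 14776 genes passed, against 2907 of 14779 with all libraries.

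Timp1, Timp3 and Timp4 lie inside the synapsin genes Syn1, Syn3 and Syn2 on the opposite strand, as is known for this family. Timp3 lies on chromosome 10 from 86300372 to 86349506 and shares 1733 exon bases with Syn3 in GENCODE, and Timp4 shares 90 with Syn2. Syn1, Syn2 and Syn3 had 2 to 19, 18 to 28 and 60 to 134 counts per library. The level of Timp4, with 2 to 32 counts, is thus of the same size as that of the gene around it, while Timp3 had 3645 counts or more in every library.

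A list of 17 other genes of the pathway was read, which held inhibitors and clearance genes but also genes such as Sparc that do not encode an inhibitor. Its counts are therefore not counts of inhibitors alone. Of 15 tested, 2 rose, 6 fell and 7 did not pass (median log2 fold change -0.34). Without WT 2, 1 rose and 4 fell. Thbs1, which encodes a thrombospondin that binds Mmps, rose by 1.52 ± 0.15 on the log2 scale (edgeR adjusted p = 0.000183). The related gene Thbs2 went the other way, at -1.26 (edgeR adjusted p = 0.00490). Sparc, Serpinf1 and Adamtsl3 fell by 1.19, 1.21 and 1.73 on the log2 scale (edgeR adjusted p = 0.000203, 0.000496 and 0.000640). Reck, the membrane-anchored Mmp inhibitor, picked for its role after its value was seen, had 27.2 ± 4.70 CPM (SD, n = 2) in the wild types and was lower in the knockouts at 14.5 ± 1.76 CPM (SD, n = 3), with edgeR adjusted p = 0.00299. That call was lost without WT 1 (edgeR adjusted p = 0.0597). Of 17 tested matrix substrates, 9 fell, 1 rose and 7 did not pass (median -0.54), with the fibronectin gene Fn1 at -1.10 and the nidogen gene Nid1 at -0.86. Col1a1, Col1a2, Col3a1 and Dcn, all among those that fell, are fibroblast markers of the list above as well. Serpinf1 is likewise on the fibroblast list, so these lists are not separate observations. Without WT 1, 4 substrates fell, and 0 rose without WT 1, WT 2 or KO 1, against 2 without KO 3.

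Activators and the plasminogen system were read from 18 genes. Of 15 tested, 3 rose, 1 fell and 11 did not pass (median 0.15), and Plg, the plasminogen gene, was at 0 in all 5 libraries. Furin, the convertase that activates membrane-type Mmps and ADAMTS enzymes, rose 1.27-fold (edgeR adjusted p = 0.0295). The membrane serine protease gene St14 rose by 0.36 on the log2 scale (edgeR adjusted p = 0.0202). The urokinase receptor gene Plaur fell by 0.75 (edgeR adjusted p = 0.0160). Furin and St14 did not pass with WT 1, WT 2, KO 1 or KO 2 left out, nor Plaur with WT 1 or WT 2 left out. Without KO 3, 5 of this list rose and 2 fell. Of 14 other metalloprotease genes, 4 fell, 1 rose and 9 did not pass (median -0.003), with Bmp1, the procollagen C-propeptidase gene, at -0.58 ± 0.11 (edgeR adjusted p = 0.00702). None of these passed without WT 1, 2 fell without WT 2, and Adam17, the one that rose, did not pass with any library left out. Bmp1 without WT 1 was at edgeR adjusted p = 0.0814.

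Which library was left out moved the count of called members from 3 to 20. Adamts1, Adamts9 and Adamts10 passed in each of the 5 sets of 4 libraries (edgeR adjusted p up to 0.0244, 0.0153 and 0.0215). Without WT 1, Adamts12 (edgeR adjusted p = 0.0776), Adamts2 (0.211), Adamts20 (0.224), Adamts4 (0.144), Mmp12 (0.292), Mmp7 (0.156) and Mmp8 (0.0696) did not pass. Without WT 2 the same was true of Adamts20 (edgeR adjusted p = 0.1097), Adamts4 (0.163), Mmp12 (0.122), Mmp7 (0.0665) and Mmp8 (0.0587). Without KO 1, Adamts2 (edgeR adjusted p = 0.0665), Adamts4 (0.0976) and Mmp12 (0.119) did not pass, and Mmp7 and Mmp8 fell below the filter. Without KO 2, Adamts20 (edgeR adjusted p = 0.0640), Adamts4 (0.0609) and Mmp12 (0.0751) were lost. Without KO 3, all 10 passed, and so did 10 more: Adamts7, Adamts13, Adamts15, Mmp2, Mmp9, Mmp19 and the 4 Timp genes. The count over all genes moved as well, from 2907 of 14779 with all 5 libraries to 3989 of 14776 without KO 3. It was 1747 of 14554 without KO 1 and 1901 of 14663 without KO 2, so such shifts were not particular to the members. No called member changed sign in any of these sets.

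**Figure D5:**
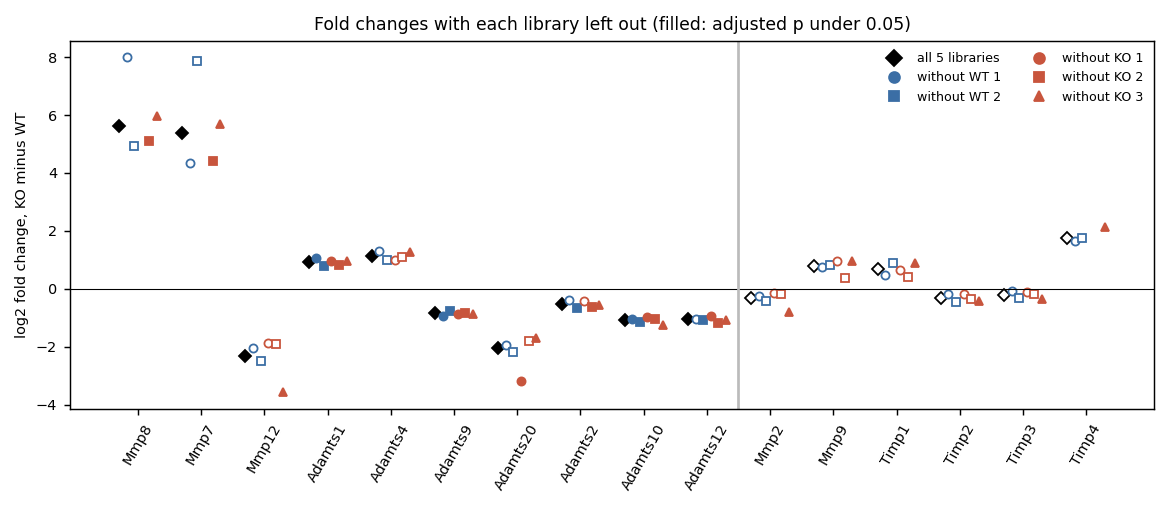
Log2 fold change of the 10 called members and of Mmp2, Mmp9 and the Timp genes with all 5 libraries and with each library left out, filled where the edgeR adjusted p is under 0.05; a missing point means that the gene fell below the filter. Adamts1, Adamts9 and Adamts10 are filled throughout, and Mmp2, Mmp9 and the 4 Timp genes are filled only without KO 3.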

How the data were processed

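The deposited values were raw gene counts, 1 file per library, not normalized by the authors. HISAT2 2.1.0 and HTSeq 0.11.1 are named with DESeq2 and build mm10 in the submitters' processing notes. The sources used here do not give the annotation, the strand setting or a batch. Per the labels' protocols, dissected urothelium gave total RNA and Illumina TruSeq libraries. The 5 summary entries of the counter were left out, and genes held 49.3% to 60.6% of tallied reads.

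Low genes were removed by filterByExpr at a count of 10 and a total of 15, and the rest were tested with edgeR 4.0.16 (R 4.3.3, TMM, quasi-likelihood, Benjamini-Hochberg over all genes tested, common biological coefficient of variation 0.109). SE is the log2 fold change over the square root of F. DESeq2 1.42.0 and limma 3.58.1 were alternatives. The test was first run on simulated data. No pair of replicates was a repeat of the same library, since chi-square per degree of freedom between them was 9.70 to 38.4.

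Positions and merged exon lengths came from GENCODE vM21 (GRCm38), matched by symbol for all 46 members. Every called member was named, with Timp1 to Timp4, Mmp2, Mmp9, Mmp14, Adamts1, Adamts5, the 3 members nearest above the threshold and up to 4 genes of smallest p from each pathway list. Other names were chosen after their values were seen. The members and lists were chosen with earlier results of these data known.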

Additional observations from a re-analysis of the deposited data

How the results depend on the processing

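No called member changed sign in any of 14 alternatives, and TMM, DESeq2 size factors, upper-quartile factors, limma-voom, a robust fit and the table without ribosomal and nuclear RNA entries each called the same 10 members. The median over all genes moved by at most 0.04 (log2) between scalings. DESeq2 called 9, without Mmp12 (adjusted p = 0.0564), and a filter of 1 CPM in 2 libraries called 9, without Mmp7, which it left out. With no filter beyond 1 count, 14 members were called, 7 of them higher, the added ones being Adamts13, Adamts19, Mmp9 and Timp1. With each library left out in turn, called members ranged from 3 to 20 (1 to 9 higher, 2 to 11 lower), and called genes overall from 715 to 3989 (340 to 1743 higher, 375 to 2246 lower). Leaving out a wild type leaves 1 library in that group, whose spread is then assumed to be that of the knockouts. Replicate numbers do not pair the mice by any label, and same-numbered libraries deviated together with r = -0.08 and 0.07 across genes, which are not independent replicates. With a replicate block, 22 members (11 higher and 11 lower) and 4637 genes (2211 higher and 2426 lower) passed. KO 3 is the only library with its replicate number, so it did not add to the fold changes of that fit. It is thus close to the fit without KO 3, with Mmp2 at -0.77 and -0.78 on the log2 scale. The log2 fold change of Mmp14, 0.0091 with all libraries, was -0.032 with upper-quartile factors, -0.012 with the replicate block and -0.0013 without ribosomal and nuclear RNA entries. It ranged from -0.095 to 0.098 with each library left out and never passed the test. Depth limits what can be said of the 12 untested members and of Mmp7, Mmp8, Mmp12, Adamts4 and Adamts20, which rest on fewer than 100 counts per library.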
